A study of Mus musculus with 33 samples.

Results

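The 7 genes described here make up the 7SK particle and the kinase it holds: Hexim1, Rn7sk (the 7SK RNA), Larp7, Mepce, Cdk9, Ccnt1 and Ccnt2. They were chosen by symbol, 7 of the 55376 gene symbols counted, and all 7 were found. The set was taken up because Hexim1 was lower in HSCs of NR-treated mice in the second of the study's cohorts. That contrast is therefore given as a description without a test, for every gene. The samples were 33 libraries of total RNA from sorted bone marrow cells of old C57BL/6 mice (O, aged 24 to 29 months per the study's methods). Cohort 2 held 24 libraries, 4 for each of haematopoietic stem cells (HSC), common lymphoid progenitors (CLP) and granulocyte-macrophage progenitors (GMP) from untreated wild-type mice (O-WT) and from wild-type mice given nicotinamide riboside, a precursor of NAD+, in the drinking water for 4 to 6 weeks (O-NR). Cohort 1 held 9 HSC libraries, 2 O-WT, 4 O-NR and 3 from NR-treated mice 2 months after NR was withdrawn (O-NR-RC). No group carried an engineered allele, and all mice were old, so no young reference enters these comparisons. The sources do not say whether each library came from its own mouse, so p-values measure the spread between libraries.

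P-TEFb, the kinase CDK9 with cyclin T1 or T2, releases RNA polymerase II that has paused soon after the start of a gene by phosphorylating the polymerase and the pausing factors NELF and DSIF. A large pool of P-TEFb is held inactive in a particle built on the 7SK RNA, a short noncoding transcript of RNA polymerase III. MePCE caps the 5′ end of 7SK, LARP7 binds its 3′ end, and HEXIM1 or HEXIM2 binds the RNA and inhibits CDK9. The super elongation complex carries active P-TEFb to genes. HEXIM1 was first described as a gene induced by hexamethylene bisacetamide, which drives leukaemia cells to differentiate, and in blood cells the balance of bound and free P-TEFb is known to bear on differentiation.

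The 7SK RNA carries GATC (GAUC in the RNA), the letters HEXIM1 binds in the 5′ hairpin. It is shown because it gave far more reads than the other 6 genes and differed most between cell types. The mouse Rn7sk gene lies at chr9:78175303-78175633 on the minus strand (GRCm38) and has a single exon of 331 bases. Its first 120 bases (chr9:78175514-78175633), with T for U, are given with the 3 GATC copies in capitals, which start at bases 13, 42 and 64. The last 60 bases (chr9:78175303-78175362), the end that LARP7 binds, follow. The Hexim1 sequence is the 156 bases just before its annotated start, chr11:103116075-103116230 on the plus strand (RefSeq table, GRCm38.p6), and is shown because Hexim1 is the gene whose level in NR HSCs led to this set. Its capitals mark TATATAA, which begins 29 bases before the start. The motif was chosen after the window was read, searched on both strands, and is a match of letters only. On the sense strand it is in 722 of 32851 promoter windows (2.198%), and on either strand in 1065 (3.242%). Those windows are longer than the 156 bases shown, so the shares are not for a stretch of that length.
Rn7sk, 5′ end: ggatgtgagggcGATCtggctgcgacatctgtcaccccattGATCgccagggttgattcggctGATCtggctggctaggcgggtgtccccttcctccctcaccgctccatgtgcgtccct
Rn7sk, 3′ end: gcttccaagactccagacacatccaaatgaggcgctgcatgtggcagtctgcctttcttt
Hexim1, before its start: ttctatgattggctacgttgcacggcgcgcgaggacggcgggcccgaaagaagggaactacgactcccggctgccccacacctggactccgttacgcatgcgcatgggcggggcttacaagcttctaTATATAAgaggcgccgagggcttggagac

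Hexim1 is at chr11:103116231-103119725 on the plus strand, with Hexim2 12704 bases after its end and Acbd4 4031 bases before its start. Larp7 (chr3:127536714-127553349, minus) overlaps 5 miRNA genes on the opposite strand. Cdk9 (chr2:32705784-32713076, minus) contains 2 miRNA genes on its own strand, and Ccnt1 (chr15:98538689-98570923, minus) overlaps the antisense gene 9330020H09Rik. Mepce (chr5:137781906-137787655, minus) and Ccnt2 (chr1:127774164-127808061, plus) complete the set. Whether counting used strand, and how reads with several matches were treated, is not given in the sources used here. Values of Larp7 and Ccnt1 may thus include antisense reads, and those of Rn7sk, which has near-identical copies in the genome, are uncertain in level.

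Levels below are CPM, a gene's counts per 1000000 counted reads of the library, with no further scaling. The libraries held 4792380 to 23816042 counted reads, with a median of 11998451. Sort markers followed the labels: their summed level was 1128 to 1377 CPM for the HSC list in cohort 2 HSCs and 24.3 to 108 in the other cells, and the CLP and GMP lists were highest in their own cells. Olfactory and vomeronasal receptor genes, which these cells are not known to use, summed to 14277 to 15260 CPM in 4 cohort 1 libraries (O-NR 1 and 2, O-NR-RC 2 and 3) against 4445 to 9082 in the other 5. In cohort 2 the sum stood highest in CLP O-WT library 3, at 8303 CPM, which also had the fewest counted reads. No pair of libraries of the same group matched within counting noise (46 pairs), and pairs across groups were not compared.

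Per kilobase of exon in O-WT HSCs of cohort 2, the 7SK RNA stood at a mean of 36449 CPM, and every protein-coding member lay between 6.39 and 19.5. Among these the order was Larp7 (19.5), Cdk9 (12.4), Mepce (11.2), Hexim1 (10.3), Ccnt1 (7.84) and Ccnt2 (6.39). The paralogue Hexim2 stood at 0.878 CPM per kilobase. Rn7sk alone took 0.415 to 1.38% of the counted reads of a library. Lengths are the summed exons of each gene, and levels are compared between genes on this per-kilobase scale only.

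Hexim1, the inhibitor, had its highest mean of cohort 2 in O-WT HSCs. In O-WT HSCs the 4 libraries gave 35.9, 30.1, 39.5 and 37.8 CPM, a mean of 35.9 ± 4.11 (SD, n = 4). In O-NR HSCs they gave 24.6, 24.3, 25.6 and 24.3 CPM (24.7 ± 0.639). All 4 O-NR libraries lay below all 4 O-WT libraries, and the fitted difference was a log2 change of -0.51 (SE 0.12), 1.42-fold lower in O-NR. These are the values that chose the gene and they carry no test. Leaving out each library in turn gave log2 changes of -0.60 to -0.47. With groups that did not overlap the sign could hardly turn, so this range adds no support. The other 6 genes differed by -0.06 to 0.16 on the log2 scale in the same contrast. Of all 17364 genes tested there, 3.09% had groups that did not overlap and 0.726% had an unadjusted p below 0.01, and nothing about Hexim1 is read from these shares.

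**Figure D1:**
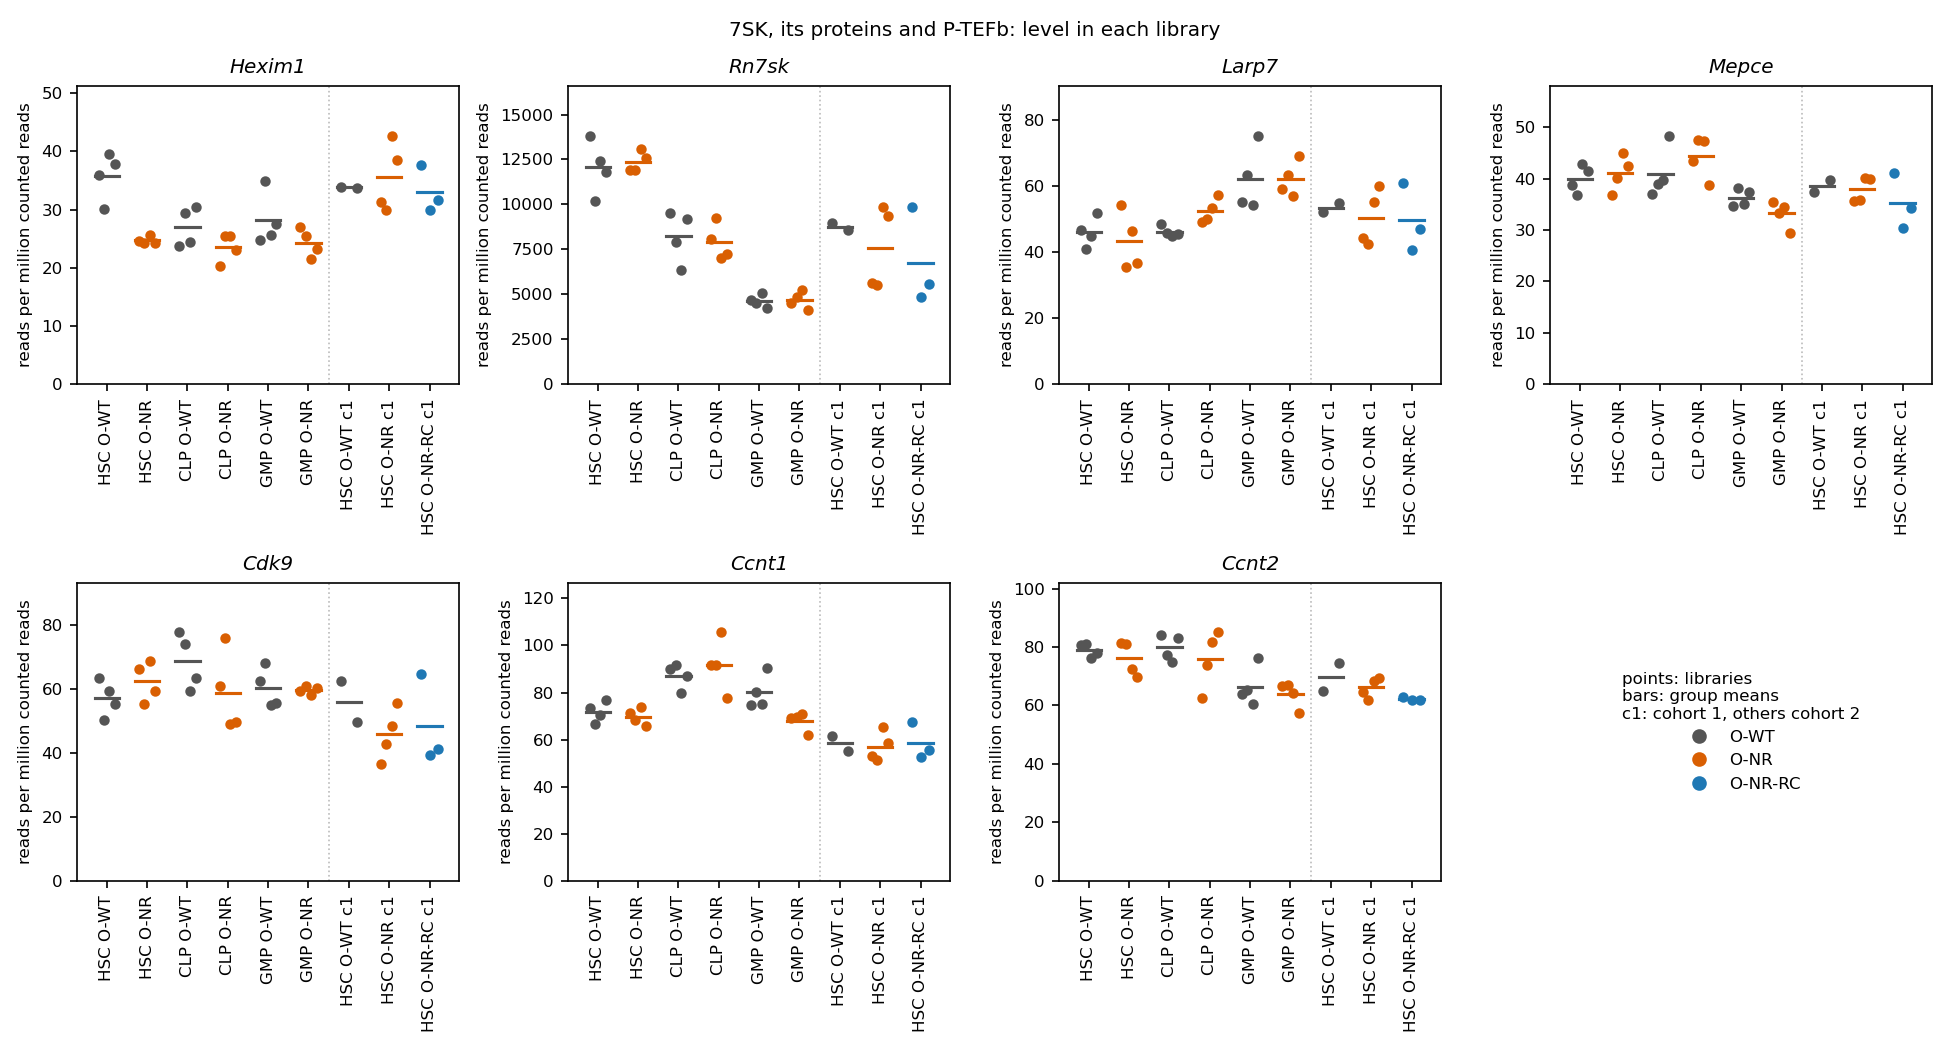
Level of each of the 7 genes in all 33 libraries, in CPM on a linear axis that starts at 0, by group; points are libraries and bars are group means. Hexim1 in O-NR HSCs of cohort 2 (24.3 to 25.6 CPM) lies below O-WT HSCs (30.1 to 39.5 CPM), and in cohort 2 Rn7sk is highest in HSC and lowest in GMP.

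Reads of B and plasma cell genes varied among these HSC libraries. The summed marker level was 146, 51.1, 221 and 721 CPM in the O-WT libraries and 110, 10.3, 49.4 and 8.27 in the O-NR libraries, so the groups overlapped. Ighm, the heavy chain of IgM, ranged from 18 to 415 CPM in O-WT and from 1.70 to 15.0 in O-NR. The defining marker Cd79a was near 0 in both (0.949 to 1.48 and 0.778 to 2.11 CPM), with Mzb1 at 0 in 1 O-WT and Igkc at 0 in 1 O-NR library. Levels of the other listed genes, which make up the rest of the sums, are not given here. Of the 6 listed, 4 were called higher and 0 lower in O-WT HSCs than in GMPs (23.7% and 19.4% of all genes). Against O-WT CLPs, 2 were called higher and 4 lower (20.2% and 8.52% of all genes). The part of these reads in the Hexim1 values was not tested. In bulk samples fewer cells of a type and less RNA per cell cannot be told apart.

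In CLPs and GMPs Hexim1 was within the spread between libraries with and without NR. The CLP libraries gave 23.8, 29.4, 24.4 and 30.5 CPM in O-WT and 20.3, 25.4, 25.4 and 23.1 in O-NR. In GMPs the values were 24.8, 34.9, 25.7 and 27.5 CPM in O-WT and 26.9, 25.5, 21.5 and 23.3 in O-NR. The groups overlapped in both cell types. The NR change was -0.09 on the log2 scale in CLPs (SE 0.20, unadjusted p = 0.666) and -0.25 in GMPs (SE 0.12, unadjusted p = 0.0645), by edgeR's quasi-likelihood test. The difference between the CLP and GMP changes was 0.25 (unadjusted p = 0.348).

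Cohort 1 supplied HSC libraries that the choice of Hexim1 did not use. There Hexim1 stood at 33.8 and 33.8 CPM in O-WT, at 31.2, 29.9, 42.7 and 38.5 in O-NR, and at 37.7, 29.8 and 31.7 in O-NR-RC. The O-NR libraries lay on both sides of the O-WT libraries. The log2 change was 0.01 for O-NR against O-WT (SE 0.43), -0.10 for O-NR-RC against O-WT (SE 0.46) and -0.12 for O-NR-RC against O-NR (SE 0.38), none of them called. Hexim1 was 29.8 to 31.7 CPM in the 4 libraries with high receptor reads and 33.8 to 42.7 in the other 5. Without those 4 the log2 change of O-NR against O-WT was 0.39 (adjusted p = 0.507, edgeR), with 2 libraries on each side. Over the HSC libraries of both cohorts, with a cohort term, the change was -0.26, given without a test since it contains the values that chose the gene.

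Among cell types, the called Hexim1 differences depended on the scaling. The HSC libraries of cohort 2 are those whose values chose Hexim1. Its differences between HSCs and other cells are thus descriptions. Nothing is read from their p-values or from how they differ between treatments. With the trimmed mean of M-values (TMM) scaling used for the main fits, Hexim1 was higher in HSCs than in CLPs of O-WT mice by 0.60 on the log2 scale (SE 0.19, adjusted p = 0.0116, edgeR). The libraries of these groups overlapped, and an exact two-sided permutation test on log2(CPM + 1) gave p = 0.0571. The call was lost without HSC O-WT library 3 (0.51, adjusted p = 0.0731) or 4 (0.45, adjusted p = 0.131), without CLP O-WT library 3 (0.40, adjusted p = 0.178), and under upper quartile scaling (0.32, adjusted p = 0.0729). Hexim1 was also called lower in CLPs than in GMPs of O-WT mice (-0.58, SE 0.19, adjusted p = 0.00961, edgeR). That difference was -0.03 with no scaling factors (adjusted p = 0.831), and was lost without CLP O-WT library 3 (-0.38, adjusted p = 0.13) or GMP O-WT library 2 (-0.35, adjusted p = 0.114). In O-NR mice no Hexim1 difference between cell types was called.

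Hexim2, the paralogue, gave few reads. Its group means were 2.08 to 4.43 CPM in cohort 2 and 6.73 to 7.07 in cohort 1, and it was not called in any comparison in which it passed the filter on low counts. It did not pass the filter in the NR fits of GMPs and HSCs of cohort 2. Of the other neighbours of Hexim1 on chromosome 11, Acbd4, an acyl-CoA binding protein, was higher in HSCs than in GMPs (log2 0.90 in O-WT and 1.14 in O-NR), as was Fmnl1, a formin of blood cells (0.74 and 0.95), and Plcd3 was not called. In the HSC contrast of cohort 2, given as a description, Acbd4 and Fmnl1 differed between O-NR and O-WT by 0.00 and -0.03 on the log2 scale.

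The 7SK RNA was the member with the largest difference between cell types. Its level in HSCs of cohort 2 was 13821, 10187, 12422 and 11829 CPM in O-WT and 11895, 11889, 13074 and 12582 in O-NR. In CLPs it was 9525, 7902, 6335 and 9162 CPM in O-WT and 8062, 9261, 7009 and 7220 in O-NR. In GMPs it was 4690, 4506, 5098 and 4244 CPM in O-WT and 4526, 4877, 5220 and 4146 in O-NR. Within cohort 2 the 3 cell types did not overlap over their 8 libraries each, with HSCs highest and GMPs lowest. The HSC libraries of cohort 1, at 4831 to 9848 CPM, overlapped both the CLPs and the GMPs of cohort 2.

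Rn7sk was 2.11-fold higher in HSCs than in GMPs of O-WT mice (log2 1.08, SE 0.24, adjusted p = 0.000283) and 2.38-fold in O-NR mice (log2 1.25, SE 0.24, adjusted p = 3.78e-05, edgeR). The call stood in both treatments when any 1 library was left out (log2 0.94 to 1.15 and 1.01 to 1.29) and under the 3 other scalings tried (0.82 to 1.39 and 1.05 to 1.41). It was not called when the filter on low counts was dropped (0.85, adjusted p = 0.232, and 1.08, adjusted p = 0.101). Against CLPs, Rn7sk was higher in HSCs by 1.67-fold in O-WT (log2 0.74, SE 0.24, adjusted p = 0.0157) and 1.71-fold in O-NR (log2 0.77, SE 0.24, adjusted p = 0.0109, edgeR). Those calls were lost with the size factors of DESeq2 in the same edgeR fit (adjusted p = 0.0907 and 0.0696), while DESeq2's own test made them (adjusted p = 0.0297 and 0.0208). They were also lost without any of HSC O-WT libraries 1, 3 and 4 or CLP O-WT libraries 2 and 3, and without HSC O-NR library 1 or 3. CLPs were above GMPs by 0.34 and 0.48 on the log2 scale, which was not called with TMM factors (adjusted p = 0.207 and 0.101) and was called with no scaling factors (0.85 and 0.76).

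**Figure D2:**
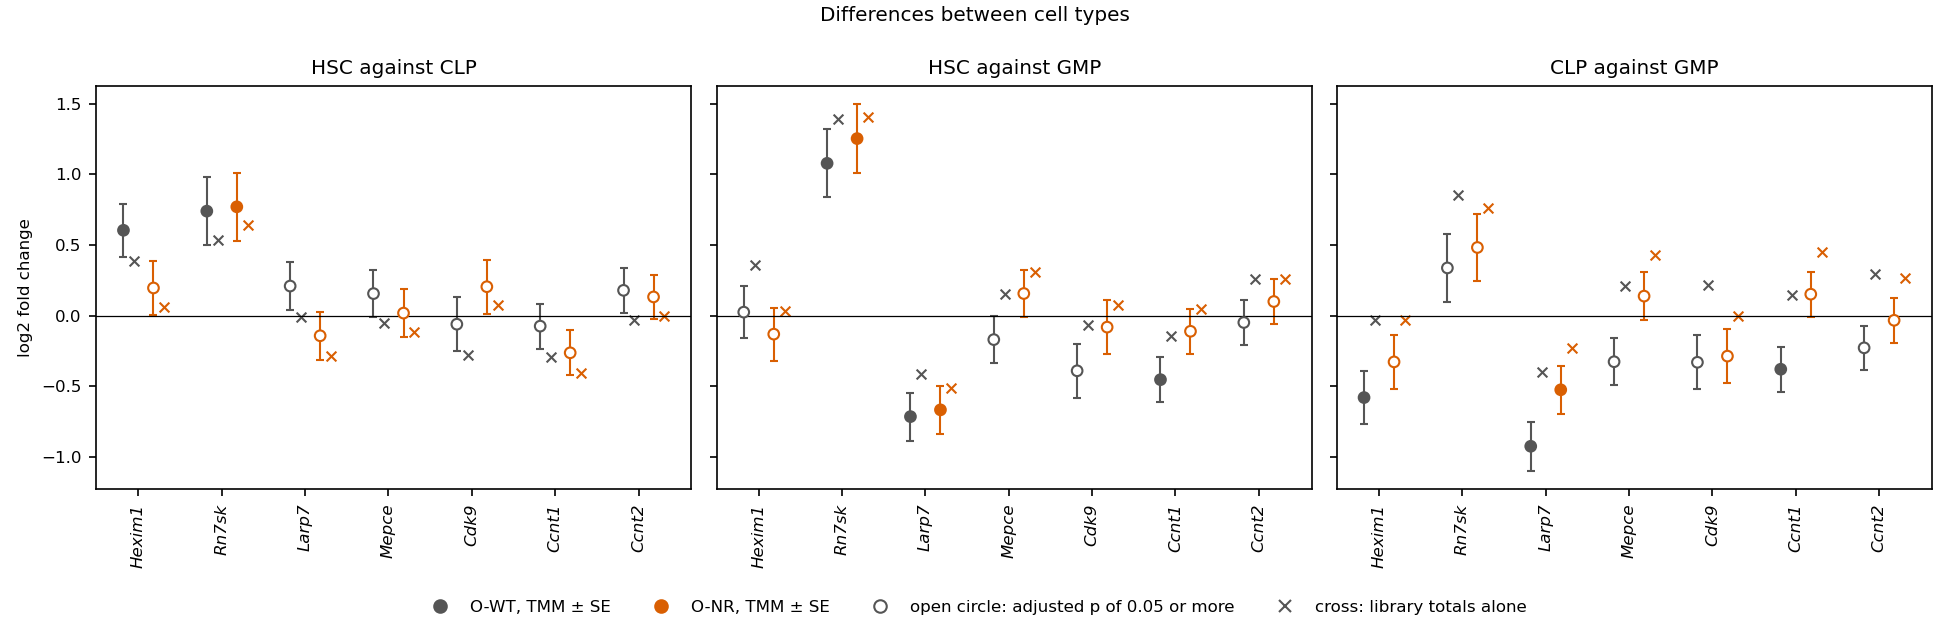
Fitted log2 differences between cell types for the 7 genes, in O-WT and O-NR mice (circles with TMM factors and standard errors, filled where called; crosses with library totals alone). Points above 0 are higher in the first-named cell type. Rn7sk lies above 0 for HSC against GMP (1.08 and 1.25) and Larp7 below 0 (-0.71 and -0.67).

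Larp7, which binds the 3′ end of 7SK, ran the opposite way. Its libraries gave 46.8, 40.9, 45.0 and 51.8 CPM in O-WT HSCs and 54.2, 35.6, 46.3 and 36.9 in O-NR HSCs. In CLPs the values were 48.5, 45.8, 44.9 and 45.4 CPM in O-WT and 49.2, 50.2, 53.5 and 57.4 in O-NR. In GMPs they were 55.1, 63.5, 54.3 and 75.3 CPM in O-WT and 59.0, 63.4, 57.0 and 69.1 in O-NR. Every GMP library lay above the highest HSC library of cohort 2, by a narrow margin (54.3 against 54.2 CPM). HSCs of cohort 1 reached 60.9 CPM and overlapped the GMPs. Larp7 was lower in HSCs than in GMPs by 0.71 on the log2 scale in O-WT (log2 -0.71, SE 0.17, adjusted p = 0.00059) and by 0.67 in O-NR (log2 -0.67, SE 0.17, adjusted p = 0.0014, edgeR), under every scaling tried and with any 1 library left out. It was lower in CLPs than in GMPs as well, by a log2 difference of -0.92 in O-WT (SE 0.17, adjusted p = 2.63e-05) and -0.52 in O-NR (SE 0.17, adjusted p = 0.0139, edgeR). With no scaling factors the O-NR difference was -0.23 (adjusted p = 0.106).

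Mepce, the capping enzyme, differed little between cell types. It gave 38.8, 36.8, 42.8 and 41.5 CPM in O-WT HSCs and 36.7, 40.1, 44.9 and 42.5 in O-NR HSCs. CLPs gave 37.0, 38.9, 39.6 and 48.3 CPM in O-WT and 43.5, 47.6, 47.3 and 38.8 in O-NR, and GMPs 34.7, 38.1, 35.1 and 37.3 and then 35.5, 33.4, 34.5 and 29.5. In O-NR mice the GMP libraries lay below both the HSC and the CLP libraries. No Mepce difference between cell types was called with TMM factors.

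Of the kinase itself, Cdk9 was called in no cell type comparison. Its libraries in cohort 2 lay at 50.5 to 69.0 CPM for HSCs, 49.0 to 77.9 for CLPs and 54.9 to 68.1 for GMPs, so the 3 cell types overlapped. The largest Cdk9 difference was -0.39 on the log2 scale for HSCs against GMPs of O-WT mice (adjusted p = 0.0908, edgeR).

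The cyclins that pair with Cdk9 were measured beside it. Ccnt1 gave 73.2, 66.8, 70.3 and 77.0 CPM in O-WT HSCs, 89.9, 91.6, 79.9 and 87.1 in O-WT CLPs, and 74.7, 80.3, 75.2 and 90.5 in O-WT GMPs. In O-NR mice it gave 71.2, 68.3, 73.7 and 65.7 CPM in HSCs, 91.5, 91.8, 106 and 77.5 in CLPs, and 69.3, 69.5, 70.9 and 61.9 in GMPs. CLPs lay above HSCs in both treatments with no overlap, a difference that was called with no scaling factors (log2 -0.29, adjusted p = 0.0112, and -0.40, adjusted p = 0.000521, for HSCs against CLPs) and not with TMM factors. With TMM factors Ccnt1 was lower in HSCs (log2 -0.45, SE 0.16, adjusted p = 0.0198) and in CLPs (log2 -0.38, SE 0.16, adjusted p = 0.0401, edgeR) than in GMPs of O-WT mice. The second of these turned to 0.15 with no scaling factors and was lost without CLP O-WT library 2 or 3 or GMP O-WT library 2 or 3 (adjusted p = 0.0774, 0.386, 0.149 and 0.0578). The first was lost without GMP O-WT library 2 (-0.35, adjusted p = 0.0907). Ccnt2, cyclin T2, lay at 69.6 to 81.4 CPM in HSCs, 62.4 to 85.0 in CLPs and 57.3 to 76.3 in GMPs, and was not called with TMM factors.

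Counted over the 7 genes, 2 were called between HSCs and CLPs of O-WT mice and 1 in O-NR mice, where 28.8% and 31.5% of all 22573 genes tested were called. Hexim1 was among the 2 and is there as a description, since its HSC values had chosen it. Between HSCs and GMPs 3 and 2 were called (43.1% and 36.5% of all genes), and between CLPs and GMPs 3 and 1 (59% and 39.2%). Groups that did not overlap were found for 2 genes in each HSC and CLP comparison (27.5% and 29.5% of all genes), for 2 and 4 between HSCs and GMPs (44% and 43.8%), and for 2 and 3 between CLPs and GMPs (48.5% and 40.2%). The median difference over the 7 genes was -0.17 and -0.08 for HSCs against GMPs, beside 0.42 and 0.26 over all genes. For CLPs against GMPs it was -0.33 and -0.03 beside 0.46 and 0.31, and for HSCs against CLPs 0.18 and 0.13 beside -0.06 and -0.04. With no scaling factors the medians of all genes moved to 0.73 and 0.44, 1.02 and 0.60, and -0.31 and -0.17, and those of the 7 genes turned to 0.15 and 0.07, 0.21 and 0.26, and -0.03 and -0.00086. The split of the calls moved too: between HSCs and GMPs 1 member was higher and 2 lower in O-WT (1 and 1 in O-NR) with TMM factors, and 3 were higher and 1 lower in each treatment with none. The comparisons within a treatment share their groups.

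Around P-TEFb, 3 of the 6 other lists (7SK-associated and release factors, pausing and elongation factors, and other kinases and cyclins) had genes called lower and none higher in HSCs than in GMPs, while the recruiters, early genes and other structural RNAs had more genes higher than lower. Of 10 genes tested in the recruiter list (11 listed, the inhibitor Hexim2 among them), 4 were higher in HSCs than in GMPs and 3 lower, in O-WT and in O-NR alike (23.7% and 20.4% of all genes were called higher, 19.4% and 16.1% lower). Against CLPs, 4 recruiters were higher in HSCs and 1 lower in each treatment (20.2% and 20.5% of all genes were called higher, 8.52% and 11% lower). Mllt3 (AF9), a subunit of the super elongation complex, stood at 264 ± 17.9 CPM (SD, n = 4) in O-WT HSCs against 36.2 ± 11.5 in the CLPs and 17.6 ± 2.72 in the GMPs, a log2 difference to GMPs of 3.62 in O-WT and 3.74 in O-NR. Ell2, an elongation factor of the same complex, was higher in HSCs than in CLPs by 1.66 in both treatments. Eaf1, a partner of the ELL proteins, stood at 24.4, 43.9 and 46.0 CPM in HSCs, CLPs and GMPs and was lower in HSCs than in GMPs by log2 differences of -1.22 and -1.23.

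Factors that associate with 7SK or release P-TEFb from it were called lower in HSCs than in GMPs for 13 of 15 genes in O-WT and 12 in O-NR. None was called higher. Of all genes 19.4% and 16.1% were called lower, and 23.7% and 20.4% higher. Their median difference was -1.09 and -0.92. Nucks1, a nuclear DNA-binding phosphoprotein, stood at 108, 279 and 350 CPM in O-WT HSCs, CLPs and GMPs, and the phosphatases Ppp1ca (85.5, 174 and 206) and Ppm1g (79.9, 106 and 180) followed the same order. Their log2 differences for HSCs against GMPs were -1.98, -1.58 and -1.47 in O-WT and -1.75, -1.26 and -1.29 in O-NR. With no scaling factors 12 of the 15 were lower in each treatment.

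Pausing and elongation factors were called lower in HSCs than in GMPs for 9 of 14 genes in O-WT and 7 in O-NR, with none higher. Beside these, 19.4% and 16.1% of all genes were called lower. With no scaling factors 7 were lower and 1 higher in each treatment. Nelfe, a NELF subunit, stood at 18.5, 20.3 and 32.2 CPM in O-WT HSCs, CLPs and GMPs and differed by -1.09 and -1.04 on the log2 scale between HSCs and GMPs. Ctr9, of the PAF1 elongation complex, was highest in CLPs (72.0 ± 6.54, 239 ± 35.3 and 102 ± 12.3 CPM in HSCs, CLPs and GMPs) and was lower in HSCs than in CLPs by log2 differences of -1.55 and -1.78. Between CLPs and GMPs of O-WT mice, 13 of these 14 genes and all 15 of the 7SK-associated genes were called lower in CLPs, beside 26.3% of all genes. Each count fell to 10 without CLP O-WT library 3, and to 8 in both lists with no scaling factors.

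Among 9 other transcription kinases and cyclins, 4 were lower in HSCs than in GMPs of O-WT mice and 1 in O-NR mice (19.4% and 16.1% of all genes were called lower, 23.7% and 20.4% higher), which became 1 lower and 1 higher in each with no scaling factors. Cdk19, a kinase of Mediator, was highest in CLPs, with 81.8 ± 5.26 CPM in O-WT HSCs, 197 ± 36.4 in CLPs and 73.6 ± 6.81 in GMPs. Of 11 early genes tested (12 listed) that are known to be controlled by pausing, 6 were higher and 1 lower in HSCs than in GMPs of O-WT mice, and 7 and 1 in O-NR mice. Egr1, a zinc-finger transcription factor, stood at 46.7 ± 14.0, 14.8 ± 1.74 and 2.67 ± 1.41 CPM in O-WT HSCs, CLPs and GMPs, and Myc ran the other way at 153 ± 51.5, 182 ± 27.9 and 275 ± 9.44. Of 8 other structural RNAs, 3 were higher and 1 lower in HSCs than in GMPs of O-WT mice, and 4 and 0 in O-NR mice. Against CLPs, 5 of the 8 were higher in HSCs and 0 lower in each treatment (20.2% and 20.5% of all genes were called higher). Their median log2 difference to CLPs was 0.82 in O-WT and 0.79 in O-NR, beside 0.74 and 0.77 for Rn7sk. Rny3, a Y RNA made by RNA polymerase III like 7SK, was higher in HSCs than in GMPs by 1.18 and 1.55 and than in CLPs by 1.79 and 1.71.

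**Figure D3:**
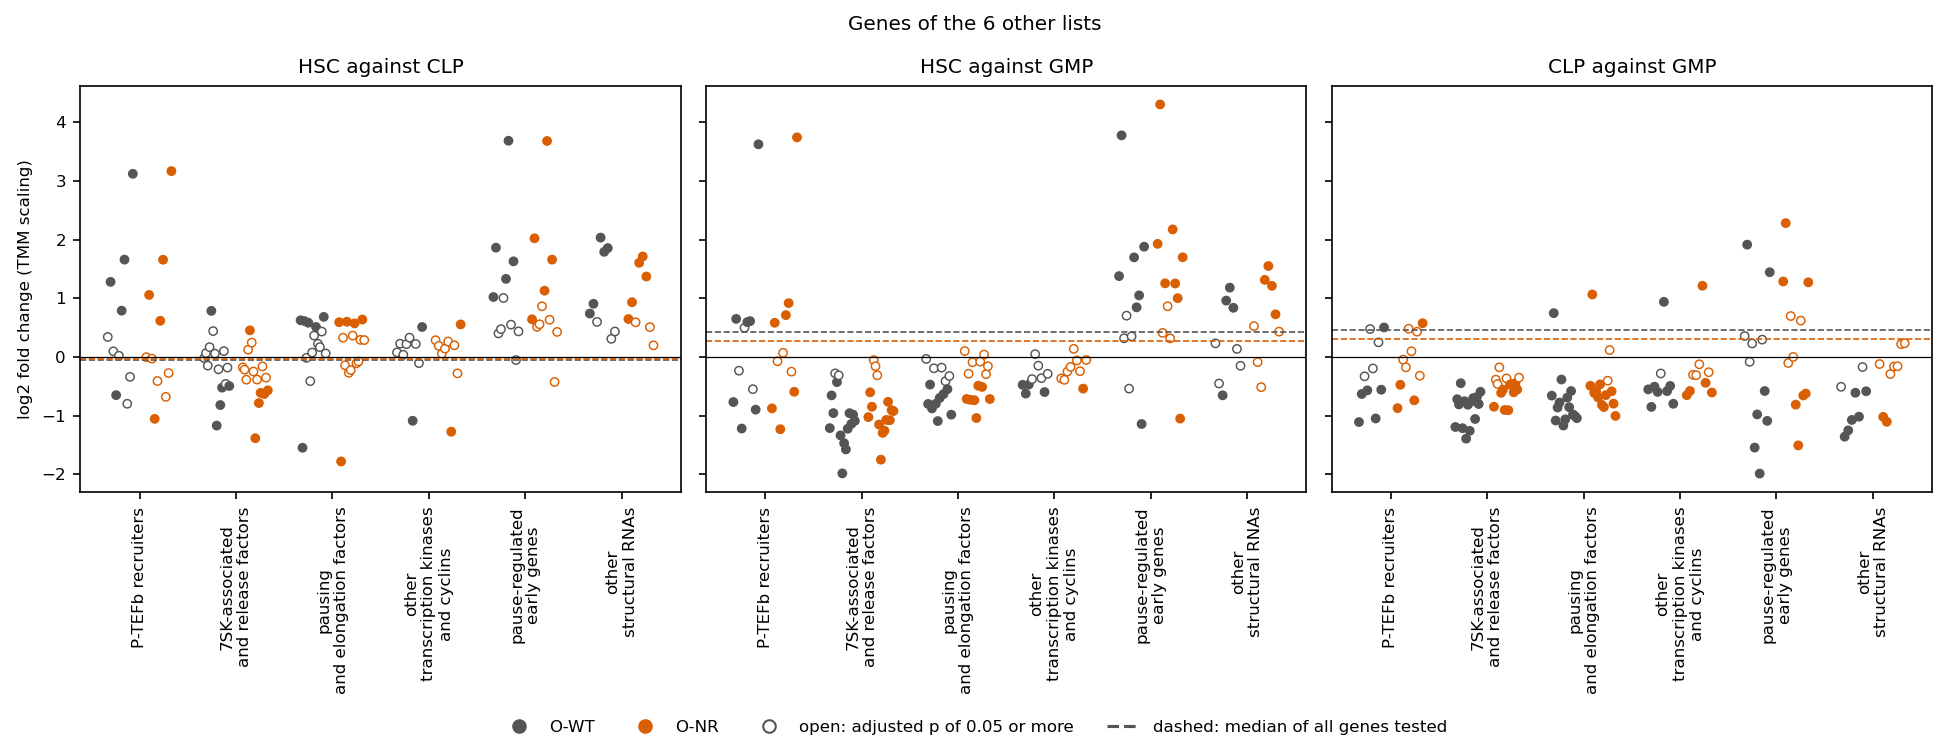
Fitted log2 differences between cell types for the genes of the 6 other lists of the pathway, 1 point per gene (open where the adjusted p was 0.05 or more), with dashed lines at the median of all genes tested. For HSC against GMP the 7SK-associated and release factors lie below 0, with medians of -1.09 (O-WT) and -0.92 (O-NR) beside 0.42 and 0.26 for all genes.

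NR was compared in CLPs and in GMPs as tests that the choice of Hexim1 did not use. In CLPs none of the 7 genes was called by edgeR (0% of all 19909 genes tested were), 0 had an unadjusted p below 0.05 (3.21% of all genes did) and DESeq2 called none of the 7 and 0 of all genes. Larp7 was the member whose CLP groups did not overlap (2.97% of all genes), with O-WT libraries at 44.9 to 48.5 CPM and O-NR libraries at 49.2 to 57.4. Its log2 change was 0.31 (SE 0.18, unadjusted p = 0.0978), and an exact two-sided permutation test gave p = 0.0286, the smallest for 4 against 4. Any 4 against 4 libraries without overlap give that p, so it adds nothing to the lack of overlap for which Larp7 is named. The log2 change of Rn7sk in CLPs was 0.04 (unadjusted p = 0.916).

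In GMPs none of the 7 was called by edgeR (0% of all genes were) or DESeq2 (8 of all genes were), and 1 had an unadjusted p below 0.05 (4.8% of all 13486 genes). That gene was Ccnt1, cyclin T1, with O-WT libraries at 74.7 to 90.5 CPM and O-NR libraries at 61.9 to 70.9, which did not overlap (3.49% of all genes). Its log2 change was -0.26 (SE 0.08, unadjusted p = 0.00353), with 0.986% of all genes below an unadjusted p of 0.01, and it failed the correction (adjusted p = 0.905). In GMPs the log2 change of Rn7sk was -0.01 and that of Mepce -0.15 (unadjusted p = 0.0914). The NR change of Ccnt1 in CLPs minus that in GMPs was 0.53 (SE 0.23, unadjusted p = 0.0235, adjusted p = 0.945, edgeR), beside 3.56% of all genes with an unadjusted p below 0.05.

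**Figure D4:**
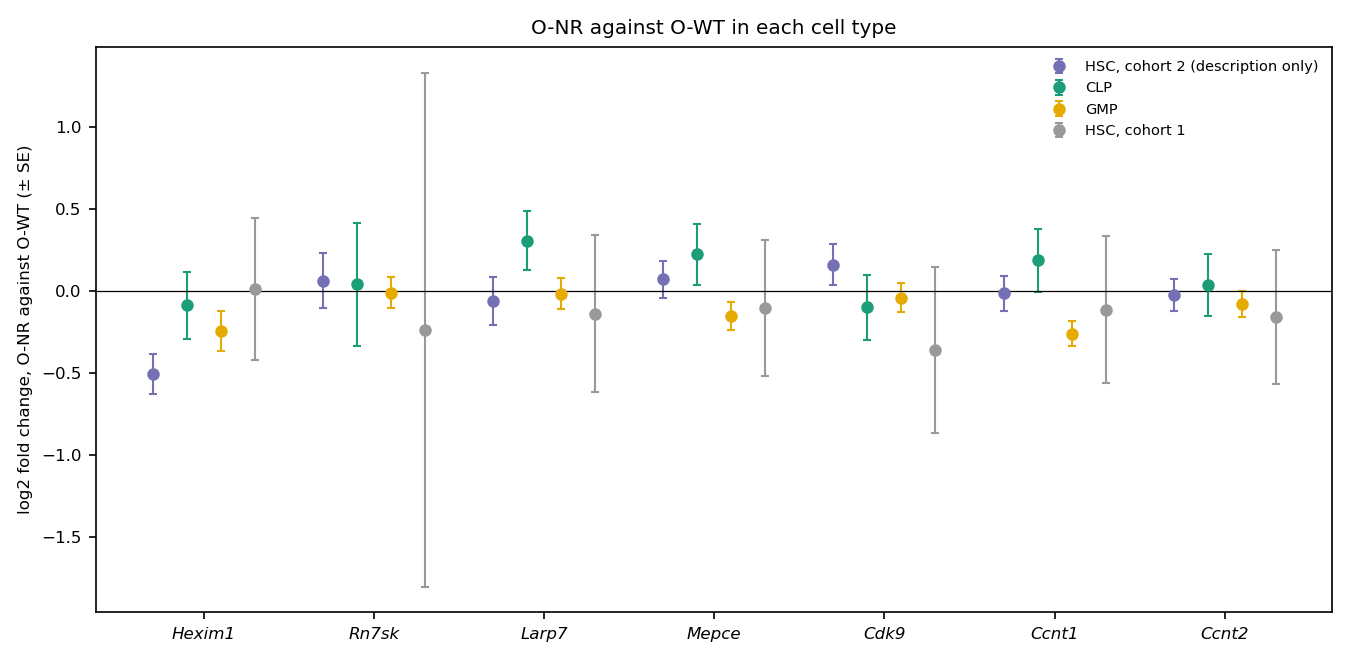
Fitted log2 changes with NR for the 7 genes, with standard errors, in HSC, CLP and GMP of cohort 2 and in HSC of cohort 1; points below 0 are lower with NR. Hexim1 lies at -0.51 in HSC of cohort 2 and at 0.01 in HSC of cohort 1.

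No gene of the 6 other lists was called with NR in CLPs or GMPs by edgeR, which called 0% of all genes in either, or by DESeq2, which called 0 of all genes in CLPs and 8 in GMPs. An unadjusted p below 0.05 was found in CLPs for 2 of the 7SK-associated genes and 1 of the pausing factors. In GMPs it was found for 1 each of the 7SK-associated genes, early genes and structural RNAs. Of all genes tested, 3.21% in CLPs and 4.8% in GMPs had such a p, so nothing is read from these counts. Myc, an early gene of the pausing list, had the smallest p of its list in GMPs, a log2 change of -0.26 (unadjusted p = 0.00717, adjusted p = 0.905, edgeR), and 0.12 in CLPs.

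In cohort 1 none of the 7 genes was called by edgeR in any of the 3 HSC comparisons, which share their groups and in which edgeR called 0% of all 33350 genes, 0 had an unadjusted p below 0.05 (0.546%, 0.795% and 0.291% of all genes for O-NR against O-WT, O-NR-RC against O-WT and O-NR-RC against O-NR) and DESeq2 called none. Rn7sk stood at 8943 and 8590 CPM in O-WT, at 5609, 5500, 9848 and 9330 in O-NR, and at 9832, 4831 and 5553 in O-NR-RC. The Rn7sk libraries split within O-NR and within O-NR-RC, with nothing between 5609 and 8590 CPM. The low values were those of the 4 libraries with high receptor reads, at 4831 to 5609 CPM against 8590 to 9848 in the other 5. Larp7 (40.8 to 47.1 against 52.1 to 60.9), Mepce (30.4 to 35.9 against 37.4 to 41.1) and Cdk9 (36.5 to 42.8 against 48.4 to 64.9) were split in the same way, while Ccnt1 and Ccnt2 overlapped. In cohort 2 each gene's log2 CPM was set against the log2 receptor sum, after the 6 group means were taken away. Pearson r was -0.737 for Rn7sk, -0.749 for Cdk9 and -0.404 for Hexim1. It was -0.250 for Mepce, -0.189 for Larp7, -0.171 for Ccnt1 and 0.203 for Ccnt2. The part of the receptor reads in the values of either cohort was not tested.

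**Figure D5:**
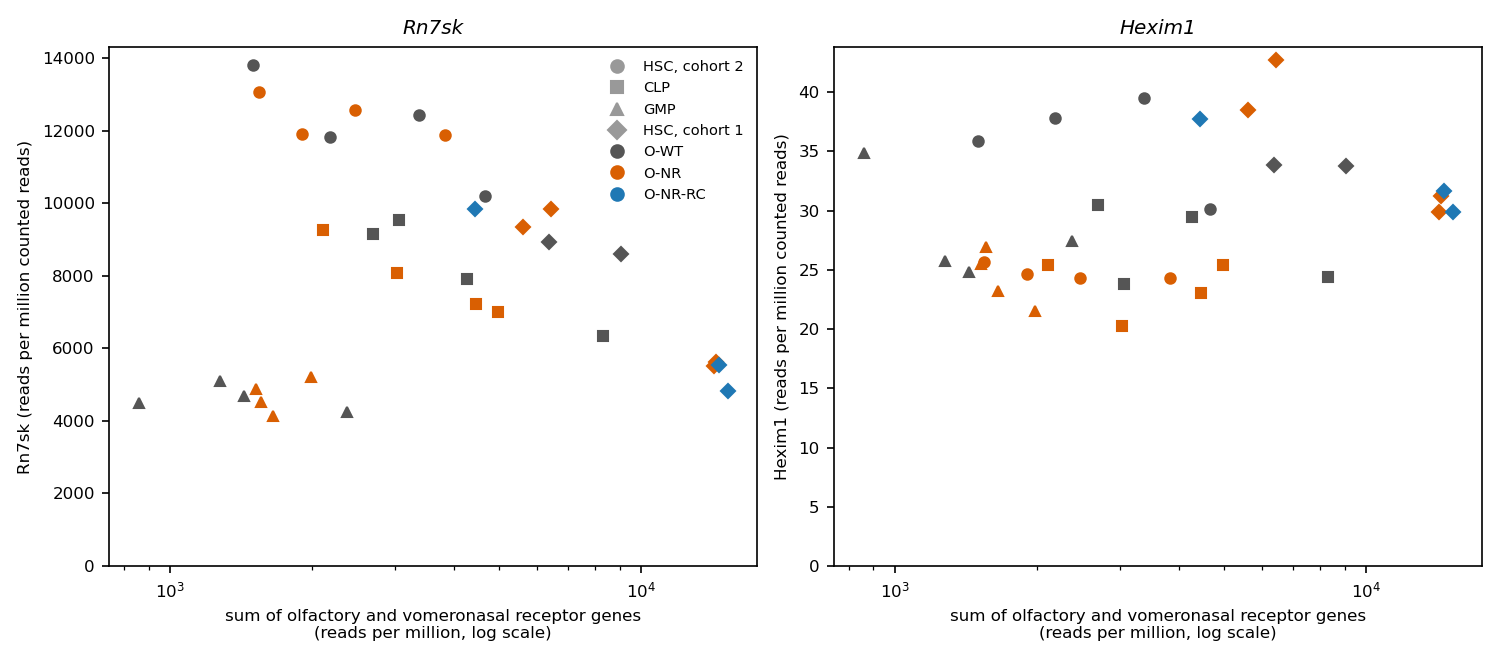
Rn7sk and Hexim1 level against the summed CPM of olfactory and vomeronasal receptor genes in each library. The 4 cohort 1 libraries at 14277 to 15260 CPM of receptor reads hold 4831 to 5609 CPM of Rn7sk, and the other 5 hold 8590 to 9848.

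With those spreads the Rn7sk changes in cohort 1 had standard errors of 1.40 to 1.66 on the log2 scale around values of -0.24, -0.35 and -0.11. Without the 4 libraries they were 0.25, 0.47 and 0.22. That leaves 1 O-NR-RC library, which the fit assumes to vary like the other groups, so the absence of calls there is not read. Ccnt2 was the gene whose O-NR-RC and O-WT libraries did not overlap (log2 -0.28, 4.49% of all genes), and the exact permutation p of 0.1 was the smallest that 2 against 3 allows. No member's libraries were apart for O-NR against O-WT (4.51% of all genes) or O-NR-RC against O-NR (1.03%). Ccnt2 gave 65.0 and 74.4 CPM in O-WT, 64.7, 61.8, 68.5 and 69.5 in O-NR, and 62.7, 61.8 and 61.7 in O-NR-RC. Marker sums of other cells stood as follows in O-NR-RC. B and plasma cell genes summed to 60.6 to 353 CPM, against 23.6 to 27.2 in O-WT and 16.6 to 49.7 in O-NR, and neutrophil genes to 37.2 to 116 against 28.9 to 48.9 and 23.1 to 48.0. Their part in these values was not tested.

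Genes whose level followed that of Hexim1 most closely over the 24 libraries of cohort 2 were Ahsa2 (Pearson r of log2 CPM 0.752), Itsn2 (0.726), Gm2000 (0.708), Luc7l (0.703) and Tsen54 (0.697), out of 22572. The values describe libraries that share their totals and cell types, and these include the HSC libraries whose values chose Hexim1. Genes picked this way lean toward its difference in those HSCs, so nothing is read from their HSC values. Itsn2, an endocytic scaffold, stood at 176 to 185 CPM in O-WT HSCs and 142 to 172 in O-NR HSCs, while Ahsa2, a cochaperone of Hsp90, overlapped between them at 31.2 to 43.2 and 28.4 to 34.9. After the 6 group means were taken away, the nearest were the noncoding Snhg20 (0.766), Gm42715 (0.719), the glycolytic enzyme gene Tpi1 (0.701), Cyb5b (0.699) and Gm47773 (0.690). Among the 6 other members Mepce came nearest within groups, at 0.585, and Rn7sk was at 0.124. With TMM factors, which put a shared factor into every gene of a library, those 2 values were 0.882 and 0.725.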

How the data were processed

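RNA was measured in 33 libraries made with a stranded total RNA kit for low input and counted per gene. Per the labels and the study's methods, the authors trimmed reads (cutadapt), aligned them to mm10 with STAR and counted them with featureCounts over Gencode M22. They deposited raw read counts for each library, with 4792380 to 23816042 counted reads. Whether strand entered the counting, and what became of reads matching several places, is not given in the sources used here. A label field of the GMP libraries names another progenitor, and their titles were followed.

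From the deposited counts, plain CPM were computed for printed levels. Tests used edgeR 4.0.16 (quasi-likelihood, TMM factors, R 4.3.3), on genes above 3 CPM in at least 4 libraries (2 in cohort 1), with Benjamini-Hochberg adjustment over all genes and a call at an adjusted p below 0.05. Cell types were compared in 1 fit over the 24 libraries of cohort 2, which shares the spread, and NR within each cell type and cohort. Single genes also had an exact permutation test on log2(CPM + 1). DESeq2 1.42.0, other scalings, filters and a replicate block were alternatives.

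The members, gene lists and tests were chosen with earlier results of these data known. Named genes were the 7 members, Hexim2, the 2 nearest genes on either side of Hexim1, the genes with the smallest p among those called in each list, and the 5 most like Hexim1 by each of 2 measures. Some genes are not reported here. In simulated counts for HSC against GMP of O-WT mice, 200 of 22573 genes were changed. Of those changed by 0.5 on the log2 scale 6% were called, and of those changed by 1, 91.5%. At an unadjusted p below 0.01 the shares were 49% and 100%. In the data 43.1% of all genes were called there, so the adjusted cut was looser and the shares called do not carry over. With 200 genes changed for NR, the shares called at 0.5 and 1 were 2% and 76% in CLPs (19909 genes). They were 59.5% and 99% in GMPs (13486 genes), and 0% and 1% in HSCs of cohort 1 (33350 genes).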

Additional observations from a re-analysis of the deposited data

How the results depend on the processing

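Between HSCs and CLPs of O-WT mice the main count of 2 members called became 0 with RLE factors, 1 with DESeq2, 0 with no filter on low counts, and 1 with a filter at 1 CPM, without structural RNAs or with the 2 groups alone. In O-NR mice the count of 1 became 0 with RLE, no filter, 1 CPM or no structural RNAs, 3 with upper quartile scaling, and 2 with no scaling factors or the 2 groups alone. Between HSCs and GMPs of O-NR mice the count of 2 became 1 with no filter or no structural RNAs and 4 with no scaling factors. Between CLPs and GMPs of O-NR mice the count of 1 became 4 with upper quartile scaling or no factors and 3 with the 2 groups alone. With 1 library left out the counts ran from 0 to 2 and 0 to 1 (HSC against CLP, O-WT and O-NR), 2 to 4 and 2 to 2 (HSC against GMP), and 1 to 5 and 1 to 2 (CLP against GMP). Leaving out the structural RNAs removes Rn7sk itself, so its call is lost there by construction. The alternatives without structural RNAs, with no scaling factors and without 4 libraries of cohort 1 were chosen after seeing the data.

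These log2 differences of Hexim1, Rn7sk, Larp7 and Ccnt1 changed sign, none of them called with the main settings except that of Ccnt1 between CLPs and GMPs of O-WT mice. Hexim1, HSC against GMP in O-WT, became -0.25 with RLE or DESeq2, -0.21 with no filter, -0.061 at 1 CPM and -0.076 without mitochondrial transcripts (-0.16 to 0.26 with 1 library left out), and in O-NR 0.031 with no factors and 0.028 on log2(CPM + 1). Hexim1, HSC against CLP in O-NR, was -0.065 with upper quartile scaling. Larp7, HSC against CLP in O-WT, was -0.075, -0.012 and -0.0043 with upper quartile scaling, no factors and log2(CPM + 1). Ccnt1 was 0.056, 0.15 and 0.12 with these settings for CLP against GMP in O-WT. It was -0.0026 with RLE or DESeq2 and -0.030 with no filter for the O-NR comparison. For HSC against GMP in O-NR Ccnt1 was 0.045 and 0.038 with no factors and log2(CPM + 1), and for HSC against CLP in O-WT 0.069 at 1 CPM (-0.28 to 0.0064 with 1 library left out). The NR change of Rn7sk was -0.0066, -0.073 and -0.052 in CLPs (-0.13 to 0.16) and 0.0075, 0.021 and 0.016 in GMPs (-0.066 to 0.060), and that of Hexim1 in CLPs ran from -0.21 to 0.051 with 1 library left out. Mepce, Cdk9 and Ccnt2, not called with the main settings, also changed sign under some alternatives. For CLP against GMP in O-WT they went from -0.33, -0.33 and -0.23 to 0.16, 0.18 and 0.26 on log2(CPM + 1), and Mepce, HSC against GMP in O-WT, from -0.17 to 0.13. The cause of these changes was not tested.

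The NR change of Hexim1 in HSCs was -0.26 with both cohorts, which include the values that chose the gene. In cohort 1, Hexim1 ran from -0.16 to 0.17, -0.66 to 0.12 and -0.67 to 0.11 in the 3 comparisons with 1 library left out, and Rn7sk (O-NR-RC against O-NR) from -1.04 to 0.21. Without the 4 high-receptor libraries Rn7sk was 0.25, 0.47 and 0.22, and Hexim1 0.47 and 0.079 against O-WT and O-NR in O-NR-RC, which keeps 1 library there, assumed to vary like the other groups.

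Labels share replicate numbers, but nothing says that a number marks 1 mouse, and correlations of same-numbered libraries were not all above 0.1 except for HSCs with CLPs of O-WT mice (0.12 to 0.36) and, with 2 pairs, O-NR-RC with O-WT HSCs of cohort 1 (0.44 to 0.47). A replicate block changed no count of members called, and gave -0.28 for Hexim1 (O-NR against O-WT in cohort 1) and 0.029 and 0.043 for Hexim1 and Rn7sk (O-NR-RC against O-NR).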
